A study of Mus musculus with 18 samples.

Results

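Transverse aortic constriction (TAC), surgery that narrows the aortic arch and makes the left ventricle pump against raised pressure, was compared with a sham operation in the hearts of wild-type mice. The comparison used the 9 wild-type libraries among the 18 libraries of the series, chosen by their labels: 4 from C57 wild-type mice after sham surgery (sham 1 to 4) and 5 from C57 wild-type mice after TAC (TAC 1 to 5). Neither group carried a deletion or a transgene. The other 9 libraries came from mice with the gene for kielin/chordin-like protein (Kcp) knocked out, and 8 of them entered the statistical fit only to help estimate the spread between libraries. The labels give neither the age of the mice nor the time between surgery and collection, and they do not say that each library was a separate mouse, so p-values measure the spread between these libraries.

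A heart under pressure load is known to enlarge its muscle cells, to return to genes of the fetal ventricle such as natriuretic peptides and skeletal actin, and to use less fatty acid as fuel. Its fibroblasts are known to lay down collagen and to become periostin-producing cells. Loaded muscle cells also make proteins of the Z-disc, which anchors the contractile filaments, and chaperones that keep those proteins folded.

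Expression was given as FPKM, a level scaled for the length of the transcript and for the mapped fragments of the library. Differences are of log2(FPKM + 1), TAC minus sham, with the standard error (SE) from limma, so a difference of 1 is a doubling of FPKM + 1 and the change of a gene with a low level is understated. "Rose" and "fell" are used for genes with an adjusted p under 0.05 (limma, Benjamini-Hochberg over all genes tested), and every adjusted p below is of that kind. Among the 34714 genes of the table, 11937 reached 1 FPKM in at least 3 fitted libraries and were tested.

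The libraries were alike in size, with 11027 to 11377 genes at 1 FPKM or more and 16.0% to 17% of the summed FPKM in the 10 most abundant genes. Ddx3y, on the Y chromosome, lay between 11.9 and 16.2 FPKM in all 9 libraries and Xist at or under 0.0191 FPKM. Myosin light chain Myl7, the defining marker of atrial muscle, was listed at 0 in 3 sham and 4 TAC libraries, and the fast skeletal myosin Myh4 was listed at 0 in all 9. In a principal component analysis of the 9 libraries the leading component held 49.9% of the variance. It placed the sham libraries between -19.3 and -15.2 and the TAC libraries at 11.9, 18.6, 20.4, 12.2 and 6.59, so TAC 5 lay nearest to sham without reaching it. Results are therefore given with TAC 5 and, where it matters, without it. Kcp itself, chosen after its values were seen, lay at 0.794, 1.43, 0.888 and 1.02 FPKM in sham and at 0.985, 1.04, 1.48, 1.07 and 1.04 FPKM in TAC, and the groups overlapped (adjusted p = 0.689).

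After TAC, expression changed in 2615 of the 11937 genes tested (21.9%). Of these, 1275 rose (10.7%) and 1340 fell (11.2%), while the median difference over all genes tested was -0.008. Most shifts were small: the median was 0.38 for genes that rose and -0.34 for genes that fell. A difference of 1 or more was reached by 90 of the genes that rose, and a difference of -1 or less by 25 of those that fell. All 5 TAC libraries lay above all 4 sham libraries in 1259 genes (10.5%) and below them in 1328 genes (11.1%). Without TAC 5, 2627 of 11925 genes (22.0%) passed, 1273 of them higher (10.7%) and 1354 lower (11.4%). The calls with and without that library had 2359 genes in common in the same direction. A further 256 genes passed only with TAC 5 and 268 only without it.

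**Figure D1:**
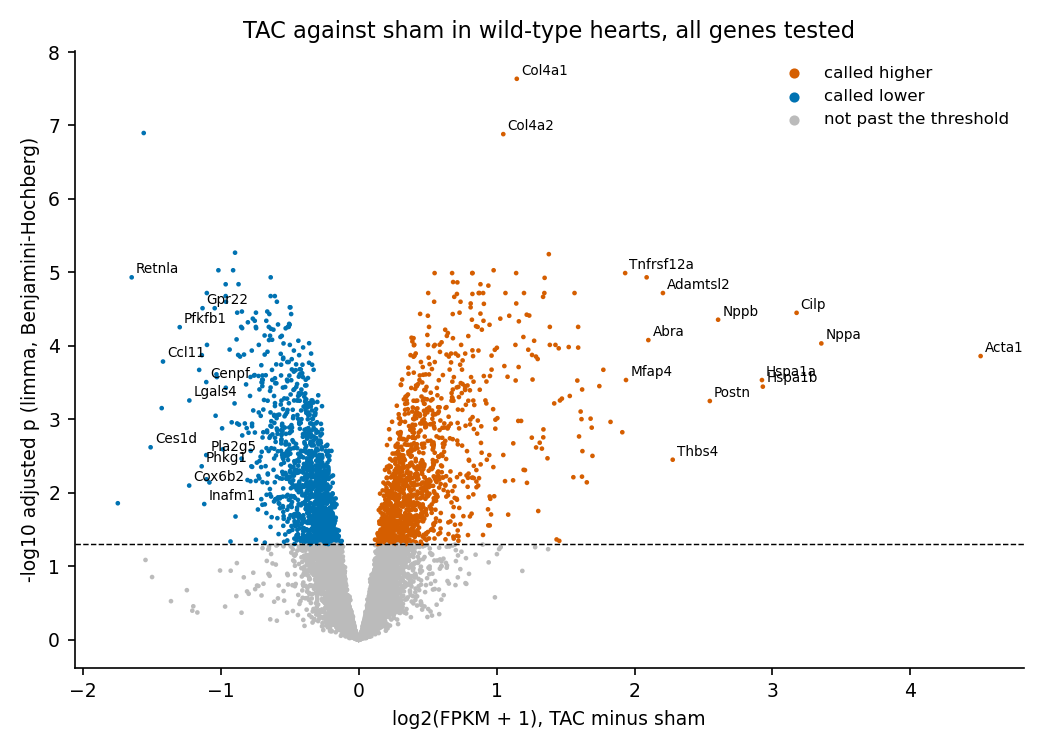
Each point is 1 of 11937 genes, with the difference of log2(FPKM + 1), TAC minus sham, on the x axis and -log10 of the adjusted p on the y axis. The dashed line is the threshold of 0.05, the 12 largest rises and 11 of the largest falls are named, and so are Col4a1 and Col4a2, whose points stand highest among the genes that rose. Rises reach further (4.51 for Acta1) than the largest fall that is named (-1.64 for Retnla).

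The 12 largest rises among genes with proper names that averaged 1 FPKM or more and whose groups did not overlap were Acta1, Nppa, Cilp, Hspa1b, Hspa1a, Nppb, Postn, Thbs4, Adamtsl2, Abra, Mfap4 and Tnfrsf12a. They hold a fetal muscle actin, both cardiac natriuretic peptides, heat shock proteins, and secreted matrix proteins (Cilp, Postn, Thbs4, Mfap4 and Adamtsl2, the last a binding partner of microfibrils). Abra, a muscle activator of actin signalling, lay at 22.1, 20.7, 16.3 and 21.8 FPKM in sham and at 61, 83.8, 94.6, 132 and 89.3 FPKM in TAC. Tnfrsf12a, the receptor for the cytokine TWEAK, lay at 24.7, 23.5, 23.2 and 23.7 FPKM in sham and at 73.3, 125, 116, 93.1 and 72.4 FPKM in TAC. TAC 5 was near the middle of its group for Abra and the lowest for Tnfrsf12a, and neither gene's groups overlapped. Abra rose by 2.1 ± 0.26 (adjusted p = 8.34e-05) and Tnfrsf12a by 1.93 ± 0.17 (adjusted p = 1.02e-05).

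The largest falls were smaller and came from other kinds of gene, among them Retnla, Ces1d, Ccl11, Pfkfb1, Cox6b2, Lgals4, Phkg1, Gpr22, Inafm1, Pla2g5 and Cenpf. Ces1d, a carboxylesterase that hydrolyses lipids, lay at 72.3, 88.8, 83 and 70.5 FPKM in sham and 27.4, 20.1, 22.5, 34 and 33.1 FPKM in TAC, with no overlap, and fell by 1.51 ± 0.3 (adjusted p = 0.0024). Gpr22, an orphan receptor of heart muscle and brain, fell by 1.13 ± 0.13, with 10.9 to 14.7 FPKM in sham and 3.95 to 6.06 FPKM in TAC. Phkg1, a catalytic subunit of phosphorylase kinase, fell by 1.14 ± 0.25, and Lgals4, a galectin, fell by 1.23 ± 0.2. Pla2g5, a secreted phospholipase, fell by 1.1 ± 0.23. Cox6b2 (an isoform of a cytochrome oxidase subunit) and Inafm1 were low throughout, at 1.45 to 3.42 and 1.34 to 4.89 FPKM in sham and 0 to 0.807 and 0.395 to 1.28 FPKM in TAC.

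**Figure D2:**
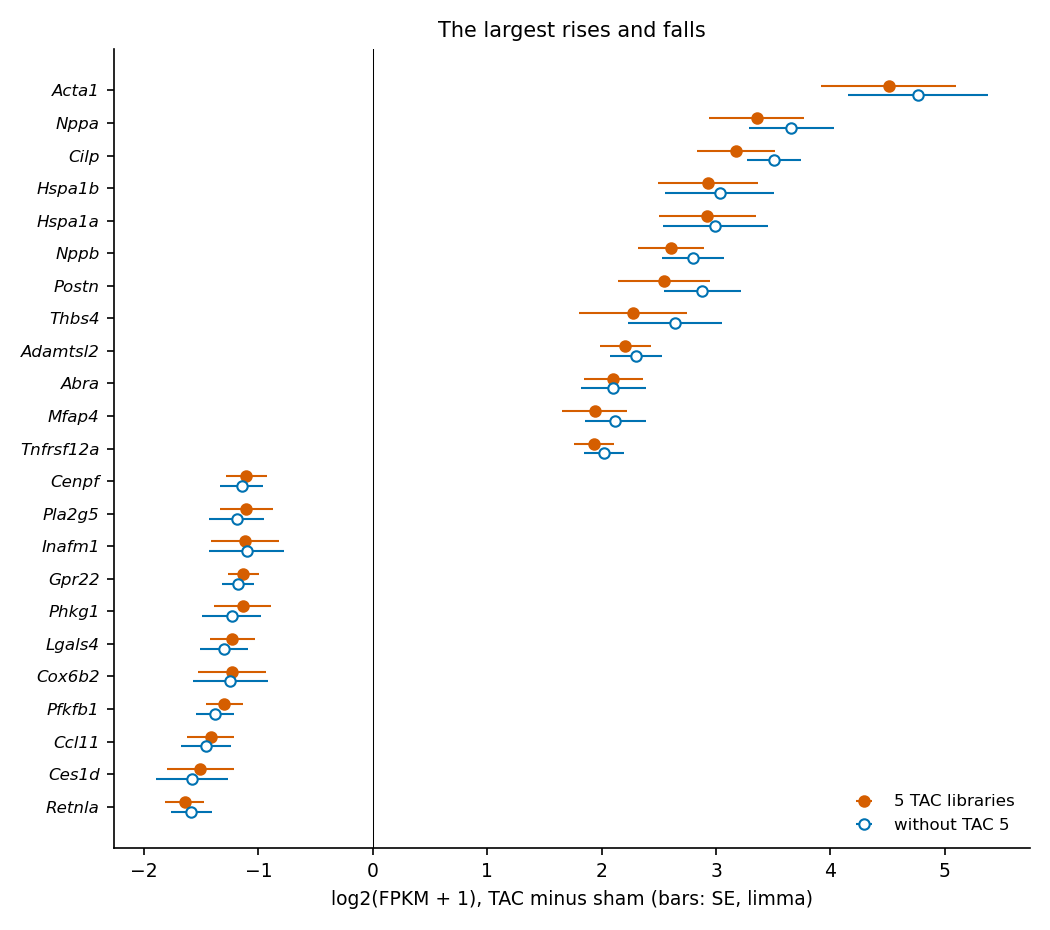
Points are the difference of log2(FPKM + 1), TAC minus sham, and bars its SE, for the 12 largest rises and 11 of the largest falls, with all 5 TAC libraries (filled) and without TAC 5 (open). Each of the 23 genes keeps its direction without TAC 5, and Postn moves from 2.55 to 2.88.

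The natriuretic peptides are hormones that heart muscle secretes under stretch. Nppa, which encodes atrial natriuretic peptide (chr4:148000722-148002074, GRCm38.p6), lay at 128, 89.3, 267 and 150.2 FPKM in sham and at 2669, 1559.6, 1901, 1509.9 and 646 FPKM in TAC. The lowest TAC value, in TAC 5, was above the highest sham value, in sham 3. Nppa rose by 3.35 ± 0.41 (adjusted p = 9.25e-05) and by 3.66 ± 0.37 without TAC 5. Nppb, which encodes the B-type peptide (chr4:147985786-147987205), lay at 144, 90.4, 138 and 131 FPKM in sham and at 652, 1152, 999.8, 757 and 446 FPKM in TAC. Its groups did not overlap either, with TAC 2 the highest and TAC 5 the lowest of the TAC libraries, and it rose by 2.61 ± 0.29 (adjusted p = 4.4e-05).

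The rest of the natriuretic system did not follow the peptides. Of its 9 tested genes, 2 rose (Nppa and Nppb) and 2 fell, with a median of 0.04. Each share was 22.2%, against 10.7% and 11.2% of all genes. The 2 that fell act on the peptides: Corin, the protease that cuts the atrial precursor into the active hormone, and Mme, the neprilysin that degrades it. Corin lay at 51.9, 53.5, 57.7 and 55.7 FPKM in sham and at 36.5, 34.3, 27, 38.9 and 37.2 FPKM in TAC, with no overlap, and fell by 0.65 ± 0.08 (adjusted p = 3.69e-05). Mme was lower in level and lay at 1.58 to 2.46 FPKM in sham and 0.848 to 1.2 FPKM in TAC, a fall of 0.56 ± 0.13 (adjusted p = 0.00409). Npr1, the receptor that makes cyclic GMP, lay at 5.97 to 6.92 FPKM in sham and at 6.15 to 7.86 FPKM in TAC (adjusted p = 0.414). Nppc, the C-type peptide, did not exceed 0.121 FPKM in any of the 9 libraries. Nppa is also an atrial marker. In the atrial list, 2 of 8 tested genes rose (Nppa and Dkk3) and 5 fell, among them the atrial light chain Myl4 (-0.68 ± 0.19). These shares were 25% and 62.5%, against 10.7% and 11.2% of all genes. Myl4 was low in level, at 0.648 to 2.38 FPKM in sham and 0.186 to 0.588 FPKM in TAC. It was under the filter with the 9 wild-type libraries fitted alone. Sln, the atrial regulator of the calcium pump, did not exceed 0.791 FPKM.

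Skeletal alpha-actin, Acta1 (chr8:123891758-123894775, minus strand), is the actin of skeletal muscle and of the fetal heart. It lay at 227, 172, 135 and 121 FPKM in sham and at 3763, 6387, 6425, 2325 and 1779 FPKM in TAC. TAC 2 and TAC 3 were the highest and TAC 4 and TAC 5 the lowest, all far above sham. Acta1 rose by 4.51 ± 0.59 (adjusted p = 0.000138), the largest rise of any gene tested, and by 4.77 ± 0.61 without TAC 5. The adult cardiac actin Actc1 was much more abundant, at 8832 to 9222 FPKM in sham and 10194 to 12196 FPKM in TAC, and rose by 0.33 ± 0.06.

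The promoters of Acta1 and Nppb are shown because these genes were among the largest rises in heart muscle and their upstream regions hold sites long studied in fetal gene reactivation. Each line gives the 250 bases before the transcript start in the promoter table, 5′ to 3′ on the gene's strand, from RefSeq (GRCm38.p6), at chr8:123894776-123895025 on the minus strand for Acta1 and at chr4:147985650-147985899 on the plus strand for Nppb. Capitals mark matches, on either strand, to the CArG box, bound by serum response factor, and to CATTCC, the core of the M-CAT element bound by TEAD factors.
Acta1: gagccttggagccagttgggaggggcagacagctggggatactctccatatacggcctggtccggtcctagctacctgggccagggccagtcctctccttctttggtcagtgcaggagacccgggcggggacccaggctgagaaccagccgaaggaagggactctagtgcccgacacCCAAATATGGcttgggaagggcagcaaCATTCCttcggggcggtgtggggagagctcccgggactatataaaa
Nppb: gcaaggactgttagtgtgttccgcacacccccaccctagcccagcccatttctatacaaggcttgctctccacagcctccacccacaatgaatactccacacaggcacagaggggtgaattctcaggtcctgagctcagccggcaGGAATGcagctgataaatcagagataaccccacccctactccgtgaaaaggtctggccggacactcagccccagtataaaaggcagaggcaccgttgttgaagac
Acta1 held a CArG box that began at position -73 and a CATTCC at -46, counted back from that start. The start used for Nppb lies downstream of the gene's outermost annotated start, so the last 114 bases of its window are inside the annotated gene. Nppb held CATTCC on the opposite strand, beginning at -105 and so within those bases, and no CArG box in this window. Among 9593 tested genes with a promoter in the table, a CArG box was found in 115 (1.2%) and CATTCC in 1013 (10.6%). Of the 15 sarcomere genes with a promoter, 4 (26.7%) held a CArG box: Acta1, Actc1 and Myom1, which rose, and Myl3, which did not pass the test (-0.03 ± 0.06). CATTCC was found in 7 of the 15 (46.7%), among them Acta1 and Tnnc1, which rose, but also Myh6, Tnnt2 and Tpm1, which fell. A match is a description of the letters and was not tested as a site of binding.

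**Figure D3:**
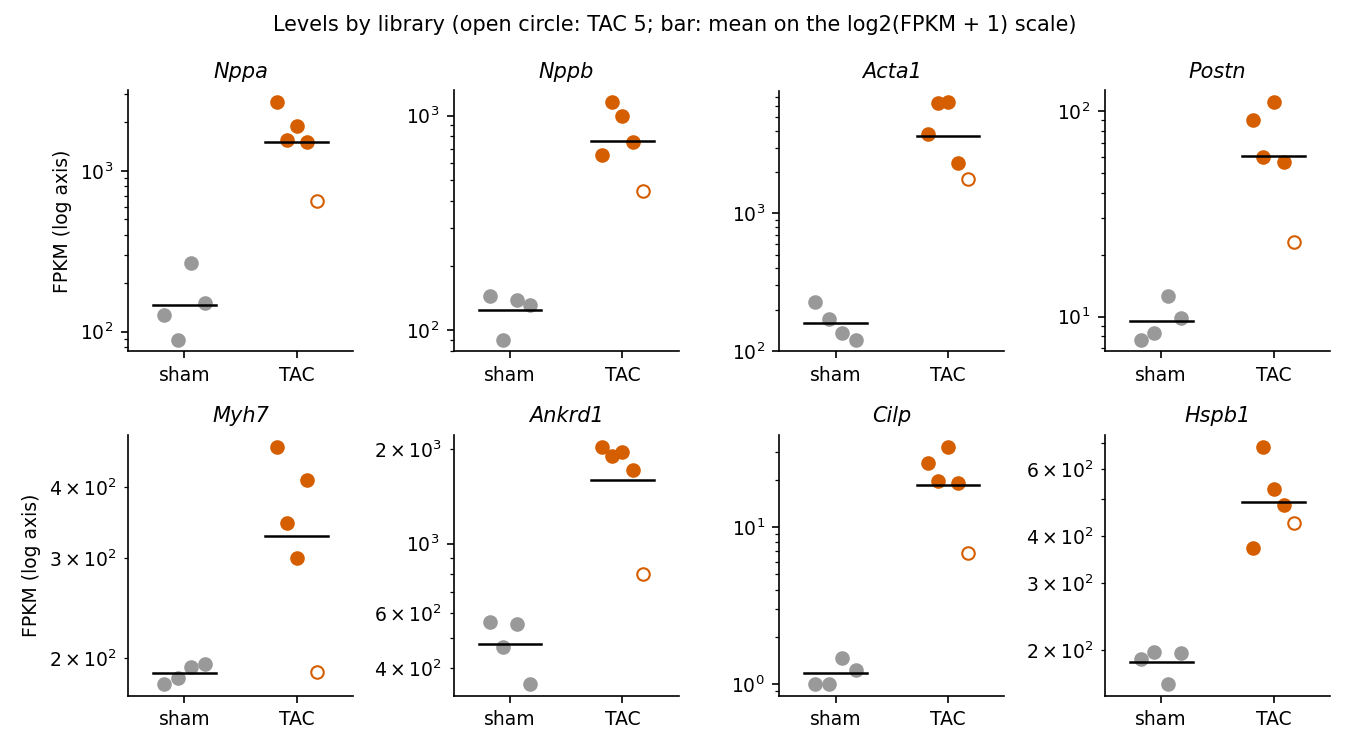
FPKM on a log axis for 8 genes in the 4 sham and 5 TAC libraries; each point is a library, the open circle is TAC 5 and the bar is the group mean on the log2(FPKM + 1) scale. TAC 5 is above every sham library for all genes drawn except Myh7, where it lies among them at 189 FPKM.

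The classical shift of a loaded heart is from the adult to the fetal myosin heavy chain. Myh7, the slow fetal chain, lay at 180.2, 185, 193 and 195 FPKM in sham and at 472, 346, 299.9, 412 and 189 FPKM in TAC. TAC 1 to 4 were all above sham while TAC 5 lay within the sham range, and Myh7 did not pass the test with all libraries (0.8 ± 0.36, adjusted p = 0.127) or without TAC 5 (1.0 ± 0.35, adjusted p = 0.0592). It passed when the 9 wild-type libraries were fitted alone (adjusted p = 0.0437). Myh6, the fast adult chain, lay at 5281 to 5490.2 FPKM in sham and 4212 to 5215 FPKM in TAC and fell by 0.19 ± 0.05 (adjusted p = 0.015).

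Across 16 sarcomere genes, 7 rose (43.8%, against 10.7% of all genes) and 5 fell (31.2%, against 11.2%), with a median of 0.15. Apart from Acta1, those that rose did so by at most 0.45: Actc1, the Z-disc crosslinker Actn2 (0.31 ± 0.05), the M-band protein Myom1 (0.32 ± 0.07), Tnnc1, Mybpc3 and Tpm2. Those that fell were troponin I, Tnni3 (-0.43 ± 0.06, adjusted p = 0.000208), ventricular light chain Myl2 (-0.29 ± 0.07), Tpm1, Tnnt2 and Myh6. Mybpc3 and Tpm2 no longer passed without TAC 5.

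Z-disc and stretch-response genes rose almost as a group. Of 22 tested, 18 rose (81.8%, against 10.7% of all genes) and none fell, with a median of 0.75. Ankrd1, a muscle ankyrin repeat protein that moves between titin and the nucleus, lay at 561, 467, 552 and 357 FPKM in sham and at 2039.5, 1906, 1963, 1721 and 798 FPKM in TAC. TAC 1 to 4 lay close together and TAC 5 stood well below them, still above sham. Ankrd1 rose by 1.75 ± 0.26 (adjusted p = 0.000353) and by 2.0 ± 0.18 without TAC 5 (adjusted p = 1.02e-05).

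The relatives of Ankrd1 rose too. Ankrd23 lay at 115, 124, 125 and 116 FPKM in sham and at 339, 382, 447, 386 and 259 FPKM in TAC, with no overlap, and rose by 1.57 ± 0.16 (adjusted p = 1.91e-05). Ankrd2 lay at 0 to 0.471 FPKM in sham and 0.202 to 2.44 FPKM in TAC, with TAC 5 inside the sham range. It rose by 0.9 ± 0.29 (adjusted p = 0.0374), a call that ended when any 1 of 6 libraries was left out (0.74 to 0.93). Xirp2, an actin-binding repeat protein of the intercalated disc, rose by 1.59 ± 0.23, with 34.4 to 40 FPKM in sham and 73.7 to 155 FPKM in TAC. Filamin C (Flnc), an actin crosslinker of the Z-disc, rose by 1.14 ± 0.15, Enah, an actin assembly factor, by 0.77 ± 0.13, and the intermediate filament desmin (Des) by 0.54 ± 0.11. Csrp3, the muscle LIM protein long discussed as part of the stretch sensor, rose by 0.48 ± 0.08.

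Calcium-handling genes divided. Of 17 tested, 4 rose (23.5%, against 10.7% of all genes) and 5 fell (29.4%, against 11.2%), with a median of 0.04. Atp2a2, the pump that returns calcium to the sarcoplasmic reticulum, lay at 2935, 3007, 2879.9 and 2984 FPKM in sham and at 2113, 2187, 2126, 2322 and 2831 FPKM in TAC. TAC 1 to 4 lay well below sham and TAC 5 just below it. Atp2a2 fell by 0.36 ± 0.08 (adjusted p = 0.00346) and by 0.43 ± 0.06 without TAC 5. Its inhibitor phospholamban (Pln) fell as well, by 0.43 ± 0.07, with 2807 to 2929.6 FPKM in sham and 1886 to 2303 FPKM in TAC, with TAC 3 the lowest. Hrc, a calcium-binding protein of the reticulum lumen, fell by 0.51 ± 0.07, and Cacna1c, the pore of the L-type calcium channel, fell by 0.24 ± 0.07. The call for Cacna1c ended without sham 1, TAC 2 or TAC 3 (-0.22 to -0.21). Those that rose were calsequestrin (Casq2, 0.34 ± 0.06), sarcalumenin (Srl, 0.35 ± 0.07), Jph2 and Asph, the first pair calcium-binding proteins of the reticulum. Ryr2, the calcium release channel, lay at 66.4 to 70.4 FPKM in sham and 56.3 to 71.2 FPKM in TAC, and passed only without TAC 5 (-0.2 ± 0.07, adjusted p = 0.0453).

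More ion channel genes fell than rose. Of 27 tested, 12 fell (44.4%, against 11.2% of all genes) and 3 rose, among them Kcna5 and Kcne1, with a median of -0.24. Kcnj2, the main inward rectifier that sets the resting potential, lay at 5.78, 4.6, 5.59 and 5.35 FPKM in sham and at 2.69, 2.07, 2.62, 2.38 and 3.07 FPKM in TAC, with no overlap, and fell by 0.83 ± 0.12 (adjusted p = 0.000131). Kcnv2, a silent subunit that modifies other potassium channels, fell by 1.1 ± 0.12, with 3.31 to 3.9 FPKM in sham and 0.812 to 1.6 FPKM in TAC. Kcnh2, of the rapid delayed rectifier, fell by 0.63 ± 0.1, and Abcc9, the sulfonylurea receptor of ATP-sensitive channels, by 0.63 ± 0.1. Kcnd2 and its partner Kcnip2, which make the transient outward current, fell by 0.58 ± 0.16 and 0.47 ± 0.13. The call for Kcnip2 ended without sham 1 (-0.44) or sham 4 (-0.42).

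Not every repolarising channel fell. Kcna5, of the ultrarapid current, rose by 0.6 ± 0.14, with 8.78 to 11.9 FPKM in sham and 14.1 to 18.4 FPKM in TAC. The chloride channel Clcn1, better known from skeletal muscle, lay at 3.59, 4.27, 3.5 and 3.67 FPKM in sham and at 0.973, 0.999, 0.738, 1.49 and 2.14 FPKM in TAC and fell by 1.1 ± 0.15 (adjusted p = 9.69e-05). TAC 5 was the TAC library nearest to sham for 10 of the 12 channel genes that fell (83.3%).

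Signalling genes of the muscle cell moved in both directions. In the adrenergic list, 7 of 20 fell (35%, against 11.2% of all genes) and 2 rose (Prkar1a and Grk5; 10%, against 10.7%). Adrb1, the main beta receptor of the heart, lay at 5.68, 5.96, 5.13 and 5.52 FPKM in sham and at 3.18, 3.48, 3.61, 2.35 and 4.06 FPKM in TAC, with TAC 4 the lowest and no overlap, and fell by 0.61 ± 0.13 (adjusted p = 0.0034). The alpha-1 receptors Adra1b and Adra1a fell by 0.43 ± 0.08 and 0.38 ± 0.1, the adenylyl cyclase Adcy6 by 0.35 ± 0.08, and the phosphodiesterase Pde4d by 0.45 ± 0.1. Rgs2, which shuts off Gq signals, fell by 1.08 ± 0.26, with 9.37 to 22.3 FPKM in sham and 3.84 to 7.48 FPKM in TAC.

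Endothelin and renin-angiotensin genes gave 3 rises (27.3%, against 10.7% of all genes) and 1 fall (9.09%, against 11.2%) among 11 tested. Edn3, an endothelin peptide, lay at 0.363, 0.332, 0.593 and 0.651 FPKM in sham and at 2.68, 2.34, 2.91, 2.36 and 2.45 FPKM in TAC, all 5 TAC libraries close together, and rose by 1.26 ± 0.19 (adjusted p = 0.000287). The endothelin receptor Ednrb rose by 0.74 ± 0.22, a call that ended without sham 1, 3 or 4 or TAC 2 (0.56 to 0.74), and angiotensin-converting enzyme (Ace) rose by 0.74 ± 0.12. The angiotensin receptor Agtr1a fell by 0.52 ± 0.09, with 19.7 to 24.3 FPKM in sham and 13.2 to 16 FPKM in TAC. Edn1, the endothelin best known in hypertrophy, ranged over 0.87 to 2.3 FPKM in sham and 0.533 to 2.66 FPKM in TAC (adjusted p = 0.775).

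Among 23 genes of hypertrophic transcription, 5 rose (Rcan1, Hand2, Srf, Tbx20 and Myocd) and 7 fell. These shares were 21.7% and 30.4%, against 10.7% and 11.2% of all genes. Rcan1, a calcineurin inhibitor whose transcription follows calcineurin activity, lay at 24.4, 26, 22.3 and 23.2 FPKM in sham and at 52.1, 78, 91, 94.4 and 65.7 FPKM in TAC, with no overlap. It rose by 1.6 ± 0.3 (adjusted p = 0.00171). The calcineurin-responsive factors Nfatc1 and Nfatc3 gave differences of 0.05 ± 0.08 and -0.12 ± 0.07, and Nfatc2 fell by 0.34 ± 0.11, a call that ended when any 1 of 5 libraries was left out (-0.36 to -0.25). Tbx5, a T-box factor of heart development, lay at 9.5, 9.48, 9.64 and 9.32 FPKM in sham and at 5.53, 4.15, 3.88, 4.16 and 4.34 FPKM in TAC, with tight groups, and fell by 0.96 ± 0.11 (adjusted p = 2.51e-05). Hopx, a homeodomain cofactor, fell by 0.63 ± 0.16, and Mylk3, the cardiac myosin light chain kinase, by 0.5 ± 0.1.

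Most genes of the extracellular matrix rose. In 6 matrix lists together, 66 of 107 tested genes rose and 4 fell, with a median of 0.50, and without TAC 5 the counts were 73 and 5. The background was 10.7% of genes rising and 11.2% falling. In bulk tissue, more cells of a type and more RNA per cell cannot be told apart.

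All 14 fibrillar and fibril-associated collagens that were tested rose, with no overlap between groups and a median of 0.92, and 4 others lay under the filter. Col1a1, a chain of the main fibrillar collagen (chr11:94936224-94953042), lay at 6.46, 7.08, 7.62 and 7.12 FPKM in sham and at 24.4, 18.1, 33.3, 18.8 and 13 FPKM in TAC. TAC 3 was the highest and TAC 5 the lowest. It rose by 1.42 ± 0.23 (adjusted p = 0.000606). Col3a1, the chain of the more pliant fibrillar collagen (chr1:45311538-45349706), lay at 13.1 to 17.2 FPKM in sham and 27.6 to 79.7 FPKM in TAC and rose by 1.53 ± 0.24. Col8a1, a short-chain network collagen, rose by 1.47 ± 0.24.

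A basement membrane collagen had the smallest adjusted p of all 11937 genes. Col4a1, a chain of the network collagen around muscle cells and vessels (chr8:11198423-11312889), lay at 45.6, 45.6, 46 and 46.1 FPKM in sham and at 101, 103, 120.1, 92 and 99.2 FPKM in TAC. The sham libraries were nearly equal, and TAC 4, not TAC 5, was the lowest TAC library. Col4a1 rose by 1.15 ± 0.07 (adjusted p = 2.32e-08). Its neighbour and partner Col4a2 (chr8:11312805-11449287) rose by 1.05 ± 0.07 (adjusted p = 1.31e-07). Sparc, a collagen chaperone of the extracellular space, lay at 114 to 129 FPKM in sham and 209.7 to 294 FPKM in TAC and rose by 0.98 ± 0.09. Of 16 tested genes in the list, 9 rose and none fell. Without TAC 5, 9 rose and 1 fell, and with the 9 wild-type libraries fitted alone 10 rose and 2 fell. The list's mean in TAC 5, 0.39 above sham, lay within the 0.24 to 0.43 of the other TAC libraries.

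Enzymes that build and crosslink collagen rose in 13 of 19 cases, and none fell. P4ha1, a prolyl hydroxylase that stabilises the triple helix, lay at 11.4, 12, 9.93 and 11.2 FPKM in sham and at 23, 28.2, 33.3, 33.3 and 26.2 FPKM in TAC and rose by 1.29 ± 0.18. Serpinh1, the collagen chaperone HSP47, rose by 0.91 ± 0.11, and the lysyl oxidases Loxl2 and Loxl1, which crosslink fibres, rose by 1.2 ± 0.13 and 1.06 ± 0.15. Lox itself lay at 0.494, 0.511, 0.46 and 0.464 FPKM in sham and at 2.09, 1.87, 1.86, 1.8 and 0.897 FPKM in TAC. Its groups did not overlap, but with all fitted libraries it did not pass (0.85 ± 0.32, adjusted p = 0.0694). It passed without TAC 5 (0.97 ± 0.33, adjusted p = 0.0484) and with the 9 wild-type libraries fitted alone (adjusted p = 0.000792).

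Matricellular and elastic-fibre genes held some of the largest rises: 16 of 26 rose, 2 fell (Thbs2 and Ltbp1), and the median was 0.66. Postn, periostin, a secreted protein of activated fibroblasts (chr3:54359267-54391041), lay at 7.73, 8.35, 12.6 and 9.79 FPKM in sham and at 90.2, 59.7, 110.1, 56.5 and 23.1 FPKM in TAC. TAC 5 was the lowest TAC library and still above every sham library. Postn rose by 2.55 ± 0.41 (adjusted p = 0.000562) and by 2.88 ± 0.34 without TAC 5.

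Cilp, cartilage intermediate layer protein, a matrix protein known to bind TGF-beta, lay at 1.01, 1.01, 1.47 and 1.23 FPKM in sham and at 25.6, 19.7, 32.5, 19.1 and 6.82 FPKM in TAC. Again no library overlapped and TAC 5 was the lowest of its group. It rose by 3.17 ± 0.34 (adjusted p = 3.55e-05) and by 3.51 ± 0.24 without TAC 5. Thbs4, a thrombospondin of the stressed heart, lay at 0.967 to 1.95 FPKM in sham and 3.09 to 18.7 FPKM in TAC and rose by 2.28 ± 0.47, while its relative Thbs2 fell by 0.4 ± 0.14. The Thbs2 call ended when any 1 of 7 libraries was left out (-0.44 to -0.32). The microfibril proteins Mfap4 and Mfap5 rose by 1.94 ± 0.28 and 1.69 ± 0.3.

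Small leucine-rich proteoglycans, which coat collagen fibrils, gave calls that differed with and without TAC 5. Biglycan (Bgn) lay at 93.5, 98.5, 111 and 105 FPKM in sham and at 295, 239, 322, 223 and 173 FPKM in TAC and rose by 1.26 ± 0.17 (adjusted p = 0.000133), and asporin (Aspn) rose by 0.99 ± 0.18. Decorin (Dcn), lumican (Lum) and fibromodulin (Fmod) gave adjusted p-values of 0.0505, 0.0537 and 0.0683 with TAC 5. Without TAC 5 all 3 passed, at 0.43 ± 0.1, 0.6 ± 0.14 and 1.26 ± 0.34. In the 12 tested proteoglycan and hyaluronan genes, 5 rose with all libraries and 9 without TAC 5.

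Matrix turnover genes rose on both sides of the balance, with 9 rises and 2 falls (Adamts5 and Mmp15) among 20 tested. The inhibitor Timp1 lay at 0.971, 1.27, 0.856 and 2.45 FPKM in sham and at 7.42, 4.6, 11.6, 9.41 and 5.03 FPKM in TAC and rose by 1.83 ± 0.32 (adjusted p = 0.00108). The gelatinase Mmp2 rose by 0.74 ± 0.17, with 15.7 to 20.6 FPKM in sham and 24.4 to 37.7 FPKM in TAC. Of 14 integrins and relatives, 6 rose, among them Itga9 (0.88 ± 0.09) and Itgbl1 (1.3 ± 0.18), and Itgb6, part of a receptor known to activate TGF-beta, fell by 0.49 ± 0.12.

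Of 20 TGF-beta genes, 8 rose (40%, against 10.7% of all genes) and 1 fell. The ligands Tgfb1, Tgfb2 and Tgfb3 rose by 0.3 ± 0.08, 0.69 ± 0.23 and 0.67 ± 0.12. The Tgfb2 call ended when any 1 of 7 libraries was left out (0.62 to 0.70). Pmepa1, a target of the pathway that also restrains it, lay at 6.2, 7.58, 7.01 and 7.27 FPKM in sham and at 14.3, 16.1, 15.2, 12.9 and 11.7 FPKM in TAC, with no overlap, and rose by 0.9 ± 0.1 (adjusted p = 1.91e-05). The co-receptor Tgfbr3 fell by 0.38 ± 0.08.

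Most markers of activated fibroblasts rose. Of 15 activated markers, 9 rose (60%, against 10.7% of all genes) and 1 fell (6.67%, against 11.2%), with a median of 0.95. Meox1, a homeobox factor of the activated state, lay at 3.71, 4.4, 4.52 and 4.43 FPKM in sham and at 15.1, 12, 22.4, 14.1 and 9.68 FPKM in TAC, with no overlap, and rose by 1.52 ± 0.2 (adjusted p = 0.000104). Scx, scleraxis, a factor of tendon and matrix-producing cells, rose by 1.03 ± 0.13. Acta2, the smooth muscle actin of contractile myofibroblasts, lay at 49.1, 49.7, 49.2 and 52.4 FPKM in sham and at 52.5, 70.8, 90.8, 51.1 and 44.7 FPKM in TAC. TAC 2 and TAC 3 stood well above sham and the others near it (adjusted p = 0.456). Fap, fibroblast activation protein, was also within overlapping ranges (adjusted p = 0.981), and Lrrc15, a membrane marker of myofibroblasts, fell by 0.77 ± 0.11, with 6 to 6.5 FPKM in sham and 2.83 to 3.85 FPKM in TAC.

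Of 12 resident fibroblast markers, 3 rose (Medag, Cd34 and Pi16) and 2 fell (Scara5 and Tcf21), with a median of 0.16. These shares were 25% and 16.7%, against 10.7% and 11.2% of all genes. Without TAC 5 the counts were 5 and 2. Pdgfra, the growth factor receptor of fibroblasts, lay at 3.29 to 5.22 FPKM in sham and 4.3 to 6.17 FPKM in TAC (adjusted p = 0.117). Pi16, a marker of adventitial fibroblasts, rose by 0.94 ± 0.26 (not called without sham 1, at 0.76) while Scara5, another of that kind, fell by 0.55 ± 0.12. The summed level of the resident list spanned 781.6 to 1044 FPKM in sham and 899.8 to 1267 FPKM in TAC. That of the activated list spanned 82.64 to 94.04 FPKM in sham and 121.3 to 340.8 FPKM in TAC.

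**Figure D4:**
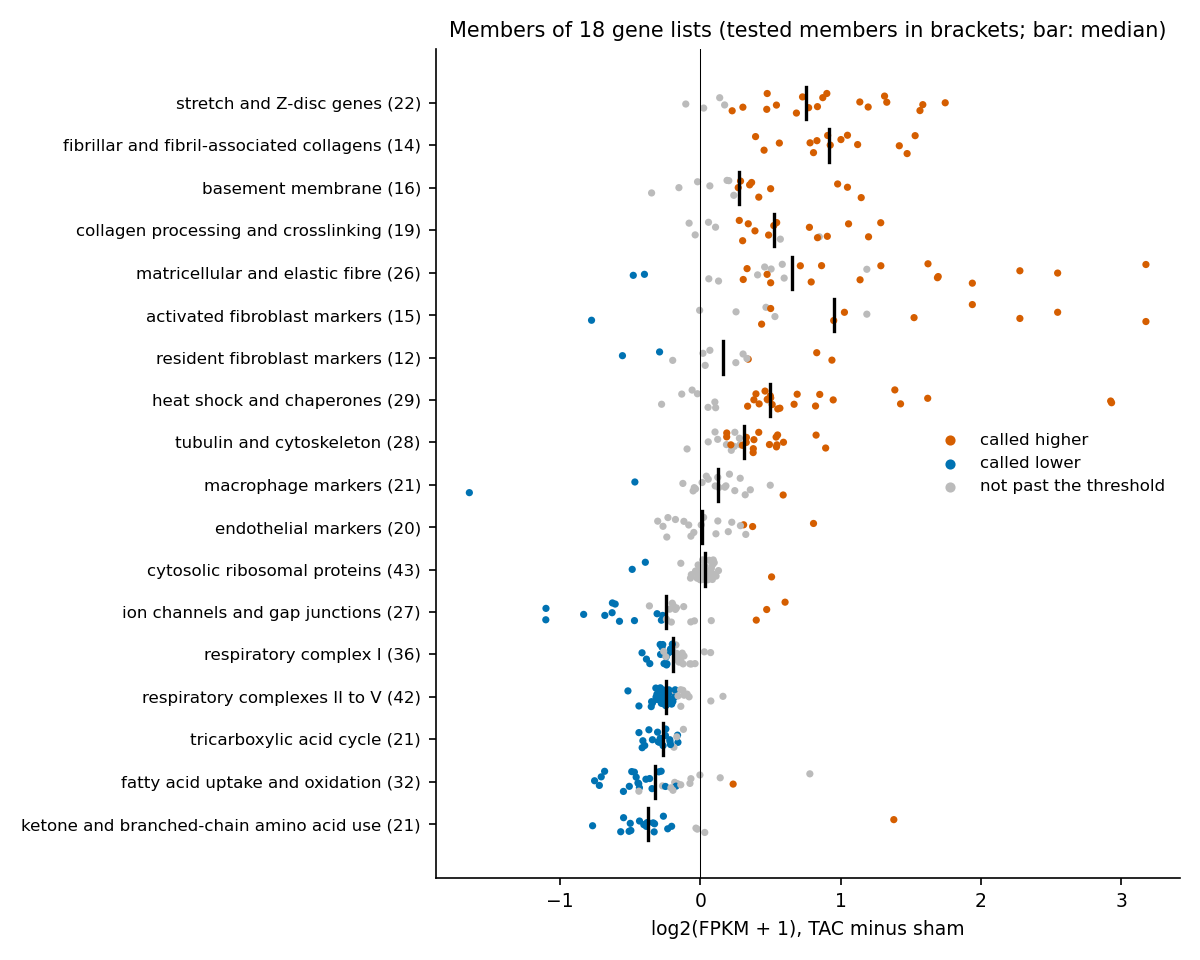
Each point is a tested gene of 1 of 18 lists, placed by its difference of log2(FPKM + 1), TAC minus sham; colour gives the call and the bar the list's median. Matrix, Z-disc and heat shock lists lie to the right of 0 (medians 0.92, 0.75 and 0.50 for fibrillar collagens, Z-disc genes and heat shock genes), and the mitochondrial lists lie to the left.

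Cytosolic chaperones rose widely. Of 29 heat shock and chaperone genes, 21 rose (72.4%, against 10.7% of all genes) and none fell, with a median of 0.50, and 21 rose without TAC 5. Hspa1a, the inducible HSP70, lay at 5.97, 11.1, 7.31 and 2.53 FPKM in sham and at 27, 40.8, 94.8, 88.1 and 43.1 FPKM in TAC. TAC 3 and TAC 4 were the highest, TAC 1 the lowest, and TAC 5 was in between. Hspa1a rose by 2.92 ± 0.42 (adjusted p = 0.000292). Hspa1b, its near-identical neighbour, rose by 2.93 ± 0.44, and the separate values of these 2 copies are uncertain. Hspb1, the small heat shock protein HSP27, lay at 189, 199, 163 and 197 FPKM in sham and at 371, 686, 531, 481 and 431 FPKM in TAC and rose by 1.39 ± 0.17 (adjusted p = 5.51e-05). Hsp90aa1, the inducible HSP90, rose by 1.43 ± 0.18, Hspb6, a small heat shock protein of muscle, by 0.85 ± 0.11, and the constitutive Hspa8 by 0.57 ± 0.09.

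The promoters of Hspa1a and Hspb1 are shown because heat shock genes are the classical targets of heat shock factor, whose binding element is built from GAA units. The lines give 250 bases before the start from RefSeq (GRCm38.p6), at chr17:34972157-34972406 on the minus strand for Hspa1a and at chr5:135887669-135887918 on the plus strand for Hspb1. Capitals mark GAANNTTC, 2 such units facing each other, which reads the same on both strands.
Hspa1a: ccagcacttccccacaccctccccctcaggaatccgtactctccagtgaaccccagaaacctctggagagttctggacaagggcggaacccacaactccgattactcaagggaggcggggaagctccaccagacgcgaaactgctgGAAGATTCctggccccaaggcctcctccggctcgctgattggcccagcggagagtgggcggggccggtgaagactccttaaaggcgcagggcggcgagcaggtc
Hspb1: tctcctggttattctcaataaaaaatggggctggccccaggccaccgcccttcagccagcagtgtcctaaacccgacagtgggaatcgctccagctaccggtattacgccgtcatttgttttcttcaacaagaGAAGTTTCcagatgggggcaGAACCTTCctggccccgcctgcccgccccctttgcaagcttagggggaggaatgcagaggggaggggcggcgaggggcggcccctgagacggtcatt
The match in Hspa1a began at -104 and those in Hspb1 at -117 and -97. GAANNTTC was found in 465 of 9593 promoters (4.85%) and in 7 of the 23 heat shock promoters in the table (30.4%). Of those 7 genes, Dnaja1, Hspa1a, Hspa1b, Hspb1 and Hspe1 rose, while Fkbp4 (0.06 ± 0.1) and Hspb3 (-0.02 ± 0.15) did not pass the test. The motif was counted in this window only and was not tested as a site of binding.

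Stress genes of the endoplasmic reticulum and of protein synthesis were listed apart from the cytosolic chaperones. Of the 30 tested, for the unfolded protein and integrated stress responses, 12 rose (40%, against 10.7% of all genes) and 1 fell, with a median of 0.18. Hspa5, the HSP70 of the reticulum and the standard marker of unfolded protein there, lay at 139.6, 156, 140.5 and 148 FPKM in sham and at 137, 154, 138, 156 and 154 FPKM in TAC (0.02 ± 0.06, adjusted p = 0.846). Calnexin (Canx), a lectin chaperone, fell by 0.24 ± 0.05. Atf4, the transcription factor of the integrated stress response, lay at 47.9, 48.1, 46.1 and 42.8 FPKM in sham and at 60.2, 77.1, 66.2, 66.6 and 62.9 FPKM in TAC, with no overlap, and rose by 0.51 ± 0.08 (adjusted p = 0.000177). Mthfd2, a mitochondrial folate enzyme and known Atf4 target, rose by 1.19 ± 0.16, with 0.615 to 0.891 FPKM in sham and 1.69 to 4.06 FPKM in TAC.

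Immediate early genes differed widely between sham libraries. Fos lay at 45.8, 8.67, 101 and 4.75 FPKM in sham and at 15.7, 15.7, 11.8, 13.1 and 12.1 FPKM in TAC, so the TAC libraries sat between the sham extremes (adjusted p = 0.527). Fosb behaved alike, at 16.2, 4.6, 27 and 0.793 FPKM in sham and 2.6, 2.12, 1.04, 1.07 and 3 FPKM in TAC. Ier5 rose by 1.35 ± 0.15 (with 9.07 to 11 FPKM in sham and 20.5 to 31 FPKM in TAC) and Myc by 0.98 ± 0.22. In all, 6 of 25 rose with all libraries (24%, against 10.7% of all genes). Without TAC 5, 3 of them, Atf3, Nr4a3 and Klf6, no longer passed.

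Genes of oxidative defence split: of 25 tested, 8 rose (32%, against 10.7% of all genes) and 4 fell (16%, against 11.2%). The metallothionein Mt2, which binds metals and scavenges radicals, lay at 33.9, 46, 45.7 and 30.2 FPKM in sham and at 108, 143, 119, 85 and 65.6 FPKM in TAC and rose by 1.37 ± 0.28. Hmox1, heme oxygenase, lay at 5.88, 6.24, 6.62 and 7.01 FPKM in sham and at 14.5, 5.85, 18.6, 20 and 19.5 FPKM in TAC. It rose by 1.06 ± 0.25 (adjusted p = 0.00693), although TAC 2 lay at the sham level. The cytosolic superoxide dismutase Sod1 fell by 0.33 ± 0.06, and Gsta3, a glutathione transferase, by 0.81 ± 0.15.

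Cdkn1a, which encodes the cell cycle inhibitor p21, lay at 6.65, 12.2, 11 and 6.87 FPKM in sham and at 23.3, 59.7, 24.2, 25.5 and 28.5 FPKM in TAC. No library overlapped and TAC 2 was far above the rest. It rose by 1.65 ± 0.39 (adjusted p = 0.00719). Trp53, which encodes the p53 factor that can induce it, lay at 9.53, 10.7, 10.5 and 10.7 FPKM in sham and 12, 10.8, 14, 11.6 and 11.1 FPKM in TAC, with no overlap, and did not pass the test (0.18 ± 0.09, adjusted p = 0.174). Among 21 tested genes of the p53 list 5 rose (23.8%, against 10.7% of all genes) and none fell. Besides Cdkn1a they were Phlda3 (0.72 ± 0.12), Gadd45g (1.08 ± 0.3, not called without sham 1, at 0.92), Aen and Bax. Mdm2, the feedback inhibitor of p53, lay at 20.2 to 22.9 FPKM in sham and 21 to 23.5 FPKM in TAC (adjusted p = 0.599). In the BCL2 family, 4 of 16 tested genes rose (25%, against 10.7% of all genes) and 2 fell (12.5%, against 11.2%). Among those that rose were Bax (0.26 ± 0.09) and Bnip3 (0.34 ± 0.11), and both calls ended when certain single libraries were left out. Bcl2l11, the death promoter BIM, lay at 3.08 to 4.1 FPKM in sham and 1.12 to 1.96 FPKM in TAC and fell by 0.84 ± 0.11 (adjusted p = 5.74e-05).

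Most genes of mitochondrial energy metabolism fell, by small amounts. In 5 lists together (fatty acid use, the tricarboxylic acid cycle, ketone and branched-chain amino acid use, and the respiratory complexes), 100 of 150 tested genes fell and 2 rose, with a median of -0.24. Without TAC 5, 103 fell and 1 rose. The background was 11.2% of genes falling.

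Fatty acid genes fell in 19 of 32 cases (59.4%). Ech1, an isomerase of the oxidation of unsaturated fatty acids, lay at 907, 1045, 862 and 935 FPKM in sham and at 587, 534, 463, 559.9 and 644 FPKM in TAC, with no overlap, and fell by 0.75 ± 0.09 (adjusted p = 4.55e-05). Acadm, the medium-chain dehydrogenase, fell by 0.47 ± 0.07, with 535 to 599 FPKM in sham and 343 to 453 FPKM in TAC. Hadha, of the trifunctional protein, fell by 0.46 ± 0.07, and Etfb, which passes electrons from these enzymes to the respiratory chain, by 0.55 ± 0.08. The fatty acid transporter Slc27a1 fell by 0.68 ± 0.09.

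Uptake genes were mixed. Cd36, the main fatty acid translocase, lay at 318 to 367 FPKM in sham and 300.1 to 343 FPKM in TAC (adjusted p = 0.571). Acsl1, which activates fatty acids, gave -0.16 ± 0.07 (adjusted p = 0.107, and 0.04 with the 9 wild-type libraries fitted alone). Fabp3, the fatty acid binding protein of heart, was the only member that rose (0.23 ± 0.08, adjusted p = 0.0401), and it did not pass without TAC 5 (adjusted p = 0.0785).

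Respiratory complexes I to V had 48 falls and no rise among 78 tested genes. Ndufs1, a core subunit of complex I, lay at 255, 257, 249 and 244 FPKM in sham and at 203, 193, 171, 207 and 208 FPKM in TAC, with no overlap, and fell by 0.36 ± 0.05 (adjusted p = 0.00017). Sdha, the flavoprotein of complex II, fell by 0.44 ± 0.06, with 472 to 488 FPKM in sham and 318 to 394 FPKM in TAC. Cox7a1, the muscle isoform of a complex IV subunit, fell by 0.52 ± 0.09, and Atp5b, the catalytic subunit of ATP synthase, by 0.31 ± 0.06. Complexes II to V fell in 32 of 42 genes (76.2%) and complex I in 16 of 36 (44.4%). With the 9 wild-type libraries fitted alone, 34 of 42 and 25 of 36 fell. Whether the shares differ was not tested.

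In the tricarboxylic acid cycle 18 of 21 genes fell (85.7%) and none rose. Citrate synthase (Cs) lay at 628, 678, 633 and 654 FPKM in sham and at 536, 514, 482, 534 and 571 FPKM in TAC, with no overlap, and fell by 0.3 ± 0.05 (adjusted p = 0.000579). Idh3g, a subunit of isocitrate dehydrogenase, fell by 0.41 ± 0.06.

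Branched-chain amino acid and ketone genes fell in 17 of 21 cases (81.0%), with a median of -0.37 and a single rise. Bckdha, a subunit of the dehydrogenase that commits branched-chain amino acids to breakdown, lay at 162, 159.6, 155 and 161 FPKM in sham and at 113, 104, 101, 114 and 133 FPKM in TAC and fell by 0.5 ± 0.07 (adjusted p = 9.69e-05). Ppm1k, the phosphatase that activates that enzyme, fell by 0.77 ± 0.1, with 11.9 to 13.4 FPKM in sham and 6.05 to 8.46 FPKM in TAC. Ivd and Aldh6a1, further down the pathway, fell by 0.55 ± 0.08 and 0.57 ± 0.08.

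The rise was Bdh1, which starts the oxidation of the ketone body beta-hydroxybutyrate. It lay at 40.8, 29.2, 29.8 and 40.9 FPKM in sham and at 93.3, 105, 87.9, 76 and 100.5 FPKM in TAC. All 5 TAC libraries were high, TAC 5 among the highest, and Bdh1 rose by 1.38 ± 0.12 (adjusted p = 5.64e-06). Oxct1, the next enzyme of ketone use, lay at 368 to 381 FPKM in sham and 337 to 399 FPKM in TAC (adjusted p = 0.767).

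The PPAR, PGC-1 and ERR list holds nuclear receptors and coactivators known to regulate these genes. Of its 20 genes, 2 fell (Rxra and Thrb; 10%, near the background of 11.2%) and 1 rose. The 1 that rose was Ppargc1a, the coactivator PGC-1alpha known to drive mitochondrial genes, at 21, 18.8, 22.3 and 23.1 FPKM in sham and 38.4, 30.2, 37.1, 46.6 and 48.4 FPKM in TAC. Its groups did not overlap, TAC 4 and TAC 5 were the highest, and it rose by 0.87 ± 0.21 (adjusted p = 0.00797). Ppara, the receptor that induces fatty acid genes, lay at 12.8 to 16.2 FPKM in sham and 14.8 to 17.1 FPKM in TAC (adjusted p = 0.271).

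More glucose genes fell than rose, with 9 falls (27.3%, against 11.2% of all genes) and 4 rises (12.1%, near the background of 10.7%) among 33. Slc2a4, the insulin-responsive glucose transporter, lay at 204, 206, 205 and 214 FPKM in sham and at 160.4, 172, 156, 163 and 175 FPKM in TAC and fell by 0.33 ± 0.06, whereas Slc2a1, the basal transporter, lay in overlapping ranges (adjusted p = 0.679). Pfkfb1, an enzyme that sets the level of a glycolytic activator, fell by 1.3 ± 0.16, with 7.26 to 8.88 FPKM in sham and 2.22 to 3.68 FPKM in TAC. Ldhb, the lactate dehydrogenase subunit typical of heart, fell by 0.43 ± 0.07, and Pgam1, the non-muscle phosphoglycerate mutase, rose by 0.53 ± 0.1.

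Nampt, which makes the NAD precursor nicotinamide mononucleotide, lay at 66.5, 65.4, 72.7 and 61.6 FPKM in sham and at 39.6, 30.8, 31.6, 42.9 and 45.8 FPKM in TAC and fell by 0.8 ± 0.1 (adjusted p = 4.77e-05). Nnt, the mitochondrial transhydrogenase, fell by 0.37 ± 0.09. Muscle creatine kinase (Ckm) lay at 1518 to 1768 FPKM in sham and 1518 to 1755 FPKM in TAC (adjusted p = 0.723). Of the 20 creatine kinase and NAD genes, 4 fell (Nampt, Nmnat3, Parp1 and Nnt) and 1 rose (Slc6a8). These shares were 20% and 5%, against 11.2% and 10.7% of all genes.

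Of 43 cytosolic ribosomal protein genes, 1 rose (2.33%, against 10.7% of all genes) and 2 fell (Rpl3l and Rpl22l1; 4.65%, against 11.2%), with a median of 0.03. An isoform pair moved in opposite directions. Rpl3, the general form of the subunit, lay at 64.8, 65.6, 80.9 and 82.3 FPKM in sham and at 118, 103, 109.7, 96.5 and 95 FPKM in TAC and rose by 0.51 ± 0.09 (adjusted p = 0.00074). Rpl3l, the form of striated muscle, lay at 180.2, 196, 166 and 189.9 FPKM in sham and at 116, 135, 120.2, 137 and 145 FPKM in TAC and fell by 0.48 ± 0.09 (adjusted p = 0.00145). Neither pair of groups overlapped, and in every TAC library Rpl3 stood nearer to Rpl3l than in any sham library.

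Cytoskeletal genes rose in 18 of 28 cases (64.3%, against 10.7% of all genes), none fell, and the median was 0.31. Tuba1a, an alpha-tubulin, lay at 53.9, 58.8, 54.1 and 55 FPKM in sham and at 79.1, 82.8, 84.4, 84.3 and 78 FPKM in TAC, with both groups tight, and rose by 0.55 ± 0.06 (adjusted p = 1.02e-05). The beta-tubulins Tubb2a and Tubb2b rose by 0.89 ± 0.12 and 0.83 ± 0.12.

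Of 21 genes for G1/S and DNA replication, 2 rose (Ccnd3 and Ccnd2; 9.52%, near the background of 10.7%), and neither passed without TAC 5. Of 26 genes for G2/M and mitosis, 16 stayed under 1 FPKM in all 9 wild-type libraries. With the 9 wild-type libraries fitted alone, 2 were tested, and 1 rose and 1 fell. With all fitted libraries 13 were tested, of which 1 fell (7.69%, against 11.2% of all genes) and none rose. That gene was Cenpf, a kinetochore protein also found at microtubules of resting muscle cells, at 1.78, 2.53, 2.07 and 2.38 FPKM in sham and 0.671, 0.22, 0.323, 0.574 and 0.658 FPKM in TAC (a fall of 1.1 ± 0.18, adjusted p = 0.000311). Ccnb1, cyclin B1, was under the filter, at 0, 0.124, 0.109 and 0.2 FPKM in sham and 0.391, 0.0943, 0.163, 0.22 and 0.357 FPKM in TAC. The groups overlapped, and a 2-sided exact permutation test gave p = 0.127.

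Of 21 macrophage markers, 1 rose (Cd14; 4.76%, against 10.7% of all genes) and 2 fell (Retnla and Timd4; 9.52%, against 11.2%), with a median of 0.12. Without TAC 5, 3 rose and 2 fell. The general markers Adgre1 and Csf1r lay in overlapping ranges, at 2.11 to 3.3 and 9.72 to 14 FPKM in sham and 1.95 to 3.78 and 9.38 to 15.1 FPKM in TAC. Retnla, a secreted protein of alternatively activated and resident macrophages, lay at 6.25, 11.1, 9.52 and 8.09 FPKM in sham and at 2.56, 1.19, 2.68, 2.6 and 1.59 FPKM in TAC. Every TAC library was below every sham library, and Retnla fell by 1.64 ± 0.17 (adjusted p = 1.17e-05). Timd4, a marker of self-renewing resident macrophages, fell by 0.47 ± 0.16 with overlapping groups, and its call ended without any 1 of TAC 1 to 4 (-0.48 to -0.42).

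The chemokine Ccl11, eotaxin, went the same way, from 3.42, 4.87, 4.62 and 4.05 FPKM in sham to 0.224, 1.33, 0.843, 1.44 and 1.19 FPKM in TAC, a fall of 1.42 ± 0.2 (adjusted p = 0.000163). Of 19 chemokine genes, the others that passed were Cxcl12 and Ccl7, which fell, and Ccl9 and Cx3cl1, which rose. The share that fell was 15.8% and the share that rose 10.5%, against 11.2% and 10.7% of all genes. Each of these calls but that of Ccl11 ended when certain single libraries were left out, and the groups of Ccl7 and Ccl9 overlapped. Without TAC 5, 3 chemokine genes rose and 2 fell. Markers of lymphocytes and other white cells were mostly too low to test: 14 of 18 stayed under 1 FPKM in all 9 libraries, and none of the 4 tested passed.

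In the list for interferon response and antigen presentation 1 of 23 genes rose (4.35%, against 10.7% of all genes) and none fell. That gene was Ifi27l2a, whose groups overlapped (0.63 ± 0.21, adjusted p = 0.0429, and 0.14 with the 9 wild-type libraries fitted alone). In the mean of the list, sham 3 stood 0.58 above the sham mean on the log2 scale, while the TAC libraries lay between -0.40 and 0.22. Of 13 tested genes of the IL-6 family, 2 rose (15.4%, against 10.7% of all genes) and 3 fell (23.1%, against 11.2%). Their median was -0.02. The 2 that rose were Osmr, the oncostatin M receptor subunit, and Stat3, its main effector, by 0.45 ± 0.09 and 0.43 ± 0.1.

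Of 20 endothelial markers 3 rose (Rgcc, Esam and Robo4; 15%, against 10.7% of all genes) and none fell, with a median of 0.02, and the junction genes Pecam1 and Cdh5 gave 0.13 ± 0.08 and 0.01 ± 0.08 (adjusted p = 0.262 and 0.964). Smooth muscle myosin Myh11 lay at 4.74 to 5.76 FPKM in sham and 2.99 to 4.8 FPKM in TAC (adjusted p = 0.161). Of 6 lymphatic markers 2 rose (33.3%, against 10.7% of all genes) and 1 fell (16.7%, against 11.2%), with a median of 0.25. Among them Pdpn rose by 0.63 ± 0.11 and Prox1, which is also expressed by heart muscle, fell by 0.69 ± 0.12. Wt1, a factor of the epicardium, rose by 0.84 ± 0.19, with 1.34 to 2.2 FPKM in sham and 3.2 to 4.15 FPKM in TAC. It was the only 1 of 4 tested epicardial and mesothelial markers that rose (25%, against 10.7% of all genes), and none fell. Without TAC 5, 2 rose. For 1 other tested marker all TAC libraries lay below all sham libraries, but it did not pass. A further 6 stayed under 1 FPKM in all 9 libraries.

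Markers of the nerve sheath were low in level, and most of those tested fell. Of 5 tested markers 3 fell (60%, against 11.2% of all genes) and none rose, with a median of -0.49. Gfra3, a receptor of glial-derived growth factors, fell by 0.49 ± 0.15, and Cdh19, a cadherin of Schwann cells, by 0.39 ± 0.14. For each of them the sham and TAC groups overlapped. Both calls ended when certain single libraries were left out (-0.47 to -0.43 for Gfra3 and -0.43 to -0.33 for Cdh19). Sox10, the factor that defines these cells, was under the filter, at 0.695, 1.1, 0.803 and 0.63 FPKM in sham and 0.215, 0.199, 0.393, 0.402 and 0.637 FPKM in TAC. Only TAC 5 overlapped with sham, and the exact permutation test gave p = 0.0238 (adjusted p = 0.222 over 28 such tests). S100b gave p = 0.0159 by the same exact test, the smallest p that 5 against 4 libraries allow, and adjusted p = 0.222.

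The distance of TAC 5 from the other TAC libraries was not uniform. It was the lowest TAC library for 477 of the 1275 genes that rose (37.4%), against 9.33% to 19.1% for each of the others. For the 1340 genes that fell, it was the highest in 558 (41.6%) and TAC 1 in 415 (31.0%). By function, TAC 5 was the lowest for 13 of 18 Z-disc genes that rose (72.2%) and for 35 of 66 matrix genes (53%), and it was the highest for 38 of 54 fuel-use genes that fell (70.4%). For heat shock genes it was the lowest in 4 of 21 (19.0%), fewer than TAC 1 with 12 (57.1%), and for basement membrane genes in 1 of 9 (11.1%).

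Averaged over whole lists, TAC 5 stood 0.46 above sham for activated fibroblast markers, where TAC 1 to 4 stood 1.0 to 1.45 above. For matricellular genes it stood 0.47 above sham and the others 0.86 to 1.19. For heat shock genes, TAC 5 at 0.58 lay within the 0.50 to 0.85 of the others, and for complex I, at -0.18, within their -0.24 to -0.14. A few transcripts set TAC 5 apart in another way: Ndufb4c and Rps10, chosen after their values were seen, lay at 7.02 and 30.1 FPKM in TAC 5 and at 35.9 to 38.8 and 50.4 to 59 FPKM in TAC 1 to 4. Ndufb4c and Rps10 are known to have near-identical relatives in the genome, so their values are uncertain. The part of these transcripts in the weaker response of TAC 5 was not tested.

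**Figure D5:**
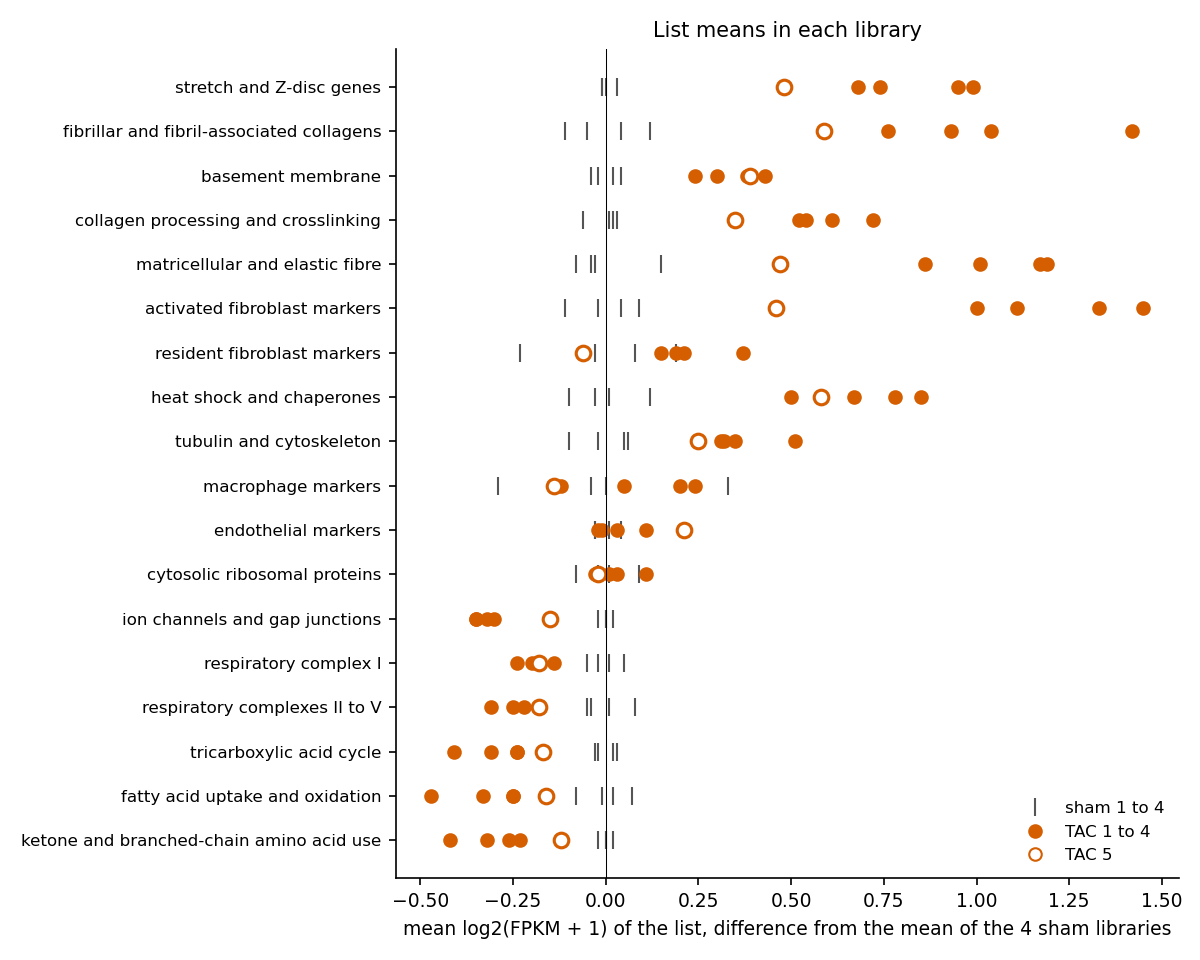
Mean log2(FPKM + 1) of 18 lists in each library, as the difference from the mean of the 4 sham libraries; ticks are sham 1 to 4, filled circles TAC 1 to 4, the open circle TAC 5. Of the TAC libraries, TAC 5 is the nearest to sham in several lists, among them activated fibroblast markers (0.46), matricellular genes (0.47) and Z-disc genes (0.48). It lies among the other TAC libraries for basement membrane (0.39) and heat shock genes (0.58) and is the farthest from sham for endothelial markers (0.21).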

How the data were processed

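Total RNA from mouse hearts was extracted with the RNeasy mini plus kit and made into SMARTER mRNA-Seq libraries, per the labels' protocols. The authors deposited 1 table of FPKM values for all 18 libraries. The build was mm10, per the submitters' processing notes, and the aligner and counter were not given in the sources used here. The header names no unit, and FPKM and RPKM cannot be told apart. No read counts were used, so the depth is unknown.

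Genes with at least 1 FPKM in at least 3 of 17 libraries were fitted as log2(FPKM + 1) with limma 3.58.1 in R 4.3.3, with 4 group means and a robust, trended spread, adjusted by Benjamini-Hochberg at 0.05. Knockout sham replicate 2 was left out, since the labels name its library as a joining of replicates 3 and 4. Scripts were tested on simulated data. The alternatives changed the libraries fitted, the replicate block, the pseudocount, the filter, the scaling, the fold threshold and the moderation, and left out each wild-type library. Fits of the wild-type libraries alone with the block, and without TAC 5, were chosen after seeing the data.

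The members, the 55 gene lists and the tests were chosen with earlier results of these data known. Lists are described by counts and medians. Named genes were Nppa, Nppb, Acta1, Postn, Trp53, Cdkn1a and Ccnb1, the first 4 members of each list, up to 5 more that passed, taken by ascending adjusted p, and the 12 largest rises and falls (mean of at least 1 FPKM, no overlap); a few genes that this rule names are not reported here. Named after their values were seen were Adamts5, Atf3, Cacna1c, Dnaja1, Fkbp4, Grk5, Hspb3, Hspe1, Kcne1, Kcp, Ltbp1, Mmp15, Mybpc3, Myl3, Myocd, Ndufb4c, Rps10, Tbx20, Tnnc1, Tnnt2 and Tpm2. For 28 list genes under the filter that reached 0.1 FPKM in a library, 2-sided exact permutation tests were used. Promoters, matched by symbol, and coordinates come from RefSeq, GRCm38.p6.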

Additional observations from a re-analysis of the deposited data

Results flagged for a closer look

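In 27 of 508 groups of named genes, 1 library lay far from the others of its group by Dixon's criterion, which chance alone meets in about 1 of 20 groups. Values are FPKM.

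TAC 5 stood apart from TAC 1 to 4 in 8 genes, of which Ndufb4c, Rps10, Tbx20 and Mmp15 were named after their values were seen. It was the lowest for Ankrd1 (797.8, others 1720.8 to 2039.5), Lox (0.897, others 1.80 to 2.09), Masp1 (4.45, others 6.17 to 6.98), the cardiac factor Tbx20 (9.53, others 12.4 to 13.1), Ndufb4c (7.02, others 35.9 to 38.8) and Rps10 (30.1, others 50.4 to 59.0). It was the highest for Ckm (1755.2, others 1517.8 to 1575.6) and Mmp15 (27.4, others 20.4 to 21.9).

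TAC 2 was the highest for Cdkn1a (59.7, others 23.3 to 28.5) and the lowest for Hmox1 (5.85, others 14.5 to 20) and Cxcl12 (19.6, others 26.9 to 28.2). TAC 3 was the lowest for Cd36 (300.1, others 330.7 to 343.4) and Etfb (336.4, others 376.6 to 392.5) and the highest for Kcp (1.48, others 0.985 to 1.07). TAC 1 was the highest for Prox1 (5.86, others 4.72 to 4.89). TAC 4 alone had a value for Myl7 (0.218).

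Among sham libraries, sham 3 was the highest for Itgbl1 (2.69, others 2.07 to 2.10) and for Sln (0.791, others listed at 0). Sham 1 was the lowest for Gadd45g (3.51, others 5.92 to 6.49), Meox1 (3.71, others 4.40 to 4.52) and Cx3cl1 (2.58, others 2.97 to 3.02). Sham 2 was the lowest for Cxcl12 (31.1, others at 32.9) and the highest for Itgb6 (3.59, others 2.83 to 2.94), Nfatc2 (5.47, others 4.43 to 4.59) and Myl7 (0.499, others listed at 0). Sham 4 was the highest for Adcy6 (45.1, others 40.8 to 41) and Slc2a4 (214.2, others 204.1 to 205.5).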

How the results depend on the processing

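No called result changed direction under any alternative that was run. Among genes that did not pass, the difference changed sign in at least 1 alternative for Cdh5, Csf1r, Fos, Hspb3, Myl3, Myl7 and Sln. With the 9 wild-type libraries alone, Acsl1, Fbxo32, Fmod, Lox and Myh7 passed as well. The count of 2615 called genes stayed within 1.5 times itself with the 9 wild-type libraries alone (2775), all 18 libraries (2759), no filter on low values (2223), a pseudocount of 0.1 (2596), a filter on the wild-type mean (2533), median-ratio scaling (2705, with 1392 higher and 1313 lower) and no robust moderation (2634). Leaving out 1 wild-type library gave 1981 to 2627 called genes, 937 to 1273 higher and 974 to 1354 lower, with the fewest called without sham 4. Asking for a log2 difference of at least 1 as well left 115 genes, 90 higher and 25 lower, by construction. The fits added after seeing the data gave 2455 genes for the wild-type libraries alone with the block and 2817 for the wild-type libraries alone without TAC 5.

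Sham and TAC libraries share replicate numbers, but deviations of same-numbered libraries correlated at only -0.05, 0.16, -0.01 and -0.05, so the numbers were not taken to pair the samples. With the replicate number as a block, 2379 genes were called, 1182 higher and 1197 lower.

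Of 246 named genes tested, 207 were called, and 157 of these were called in every alternative fit that tested them. The fold threshold is not counted here. In 44 the call ended when at least 1 wild-type library was left out: Adamts5, Ankrd2, Atf3, Bax, Bnip3, Cacna1c, Ccl7, Ccl9, Ccnd2, Ccnd3, Cd14, Cdh19, Clock, Cry2, Cx3cl1, Cxcl12, Ednrb, Fabp3, Foxo4, Gadd45g, Gfra3, Hlf, Hspe1, Ifi27l2a, Kcne1, Kcnip2, Klf6, Map1lc3a, Mmp15, Mybpc3, Myocd, Nfatc2, Nr4a3, Per3, Pi16, Rgcc, Rpl22l1, Tcf21, Tgfb2, Thbs2, Thrb, Timd4, Tpm2 and Uchl1. In each case the cause was not tested. The depth is unknown, so counting error at low FPKM could not be given.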

Other observations

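Several genes of the circadian clock fell after TAC. Of 18 clock genes tested, 5 fell (27.8%, against 11.2% of all genes) and 1 rose (5.56%, against 10.7%). Among those that fell were the PAR-domain factors Tef and Hlf, which act downstream of the clock (-0.34 ± 0.08 and -0.44 ± 0.14), and the repressors Cry2 and Per3 (-0.27 ± 0.08 and -0.4 ± 0.13). Clock itself rose by 0.19 ± 0.06. The calls for Clock, Cry2, Hlf and Per3 ended when certain single libraries were left out. Arntl, the partner of Clock, lay at 0.178, 0.258, 0.238 and 0.455 FPKM in sham and at 0.577, 1.1, 1.15, 0.657 and 0.383 FPKM in TAC and did not pass the test (0.45 ± 0.19, adjusted p = 0.101). The labels do not give the hour of collection, and its part in these values was not tested.

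Muscle ubiquitin ligases and autophagy genes break down muscle protein. Fbxo32 and Trim63, the ubiquitin ligases known from muscle wasting, lay at 20.6 to 25.5 and 68 to 77.2 FPKM in sham and 16.9 to 21.9 and 68.9 to 87.2 FPKM in TAC, with adjusted p-values of 0.12 and 0.78. Fbxo32 passed with the 9 wild-type libraries fitted alone (adjusted p = 0.0295). Of the 22 genes in their list, 3 rose (Ctsl, Bnip3 and Uchl1; 13.6%, against 10.7% of all genes) and 2 fell (Map1lc3a and Foxo4; 9.09%, against 11.2%). Of these 5 calls only that of Ctsl held with each wild-type library left out in turn. With the 9 wild-type libraries alone, 4 of the 22 rose and 4 fell. Among 14 tested complement genes 1 rose (7.14%, against 10.7% of all genes) and none fell. The gene that rose was Masp1, a protease of the lectin pathway (0.7 ± 0.18), with 2.54 to 4.17 FPKM in sham and 4.45 to 6.98 FPKM in TAC. Without TAC 5, 4 of the 14 rose, where 10.7% of all genes did.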
